A study of Ceratopteris richardii with 6 samples.

Results

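After 48 h on the synthetic auxin 2,4-D, 106 assembled genes of Ceratopteris richardii seedlings stood at least 4-fold below mock and below 24 h, while at 24 h they had stood close to mock. They were chosen by their measured levels from the 88641 genes of the table. Levels are in TPM, a measure of a gene's share of the transcripts in a library after correction for gene length, and differences are between group means of log2(TPM + 1). A gene was taken when its highest group mean was at least 10 and under 1000 TPM, when 24 h and mock differed by less than 0.5, and when 48 h was lower by 2 or more than both mock and 24 h. Of the 15731 genes in that range of levels, 13432 had mock and 24 h within 0.5, and the 106 are a subset of these. All 106 also passed the filter on low values, which asked for at least 1 TPM in at least 2 libraries and left 32225 genes for testing.

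Each group had 2 libraries of whole wild type RNWT1 sporophytes, the generation of a fern that carries roots and fronds. The groups were a mock group, 24 h of 2,4-D and 48 h of 2,4-D, the auxin at 2 µM in the medium, all from 30 days of spore culture. The time at which mock plants were harvested is not stated. The libraries used here include 0 without 2,4-D at 24 h or 48 h, so 2,4-D, plant age and time since transfer cannot be told apart. Separate cultures are not stated for the libraries of a group, so their spread may be technical. In tissue of many cell types, fewer cells of a type and less RNA per cell cannot be told apart either.

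Auxin is a plant hormone that guides growth, root formation and vascular patterning. In flowering plants it binds receptors that mark Aux/IAA repressors for breakdown, which frees ARF transcription factors to change the expression of their target genes. 2,4-D acts through the same receptors and is degraded more slowly than the natural hormone. Which pathways the 106 genes serve is not known here: the table gives only IDs of assembled transcripts, and 0 of them matched the 36816 genes of the RefSeq table for C.richardii_v2. Gene functions, sequences and tissue markers are for this reason not given, and 2 IDs are printed. The other genes are given by the rank of their fall at 48 h and by the prefix of their ID. The prefixes are SHA, RT, RO, LE and LA, and no source used here explains them.

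The most abundant of the late falling genes was SHA_TRINITY_DN6335_c0_g1. It had 867 and 932 TPM in the mock libraries, 775 and 788 TPM at 24 h, and 14.5 and 14.4 TPM at 48 h. Its level at 48 h was 1.61% of that in mock, and the lowest mock or 24 h library was 53.3 times the highest 48 h library. The log2 difference from mock was -5.86 ± 0.06 at 48 h and -0.20 ± 0.06 at 24 h (SE from the limma model), values that the choice of the gene rested on.

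The deepest fall was that of SHA_TRINITY_DN22019_c0_g2, which is also the sixth most abundant of the set in mock. Its libraries gave 341 and 337 TPM in mock, 328 and 335 TPM at 24 h, and 2.74 and 3.0 TPM at 48 h. At 24 h the gene kept 97.9% of its mock level and at 48 h 0.847%. The second-deepest fall, of an LE gene, left 1.17% of the mock level. That gene had 184 and 191 TPM in mock, 214 and 222 TPM at 24 h, and 2.35 and 2.05 TPM at 48 h. Its 24 h libraries both lay above its mock libraries, so the step to 48 h (-6.10) was larger than the difference from mock (-5.88). The fourth-deepest fall, of an SHA gene, had 91.3 and 86.7 TPM in mock, 95.8 and 93.3 TPM at 24 h, and 1.28 and 1.09 TPM at 48 h. With SHA_TRINITY_DN6335_c0_g1 at rank 3, the 4 deepest falls all ended under 2% of mock, as did 5 of the 106 genes in all.

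The next ranks held 1 LA gene, 4 RO genes and 1 RT gene. The LA gene (rank 5) had 203 and 194 TPM in mock, 216 and 227 TPM at 24 h, and 4.33 and 6.68 TPM at 48 h. It was among the 6 genes of the set whose 48 h libraries differed by more than 0.5 on the log2 scale, yet the lowest mock or 24 h library was 29.0 times the higher of them. The first RO gene (rank 6) had 124 and 130.4 TPM in mock, 119.7 and 114 TPM at 24 h, and 3.63 and 3.09 TPM at 48 h. The next (rank 7) had 56.2 and 61.1 TPM in mock, 67.9 and 74.5 TPM at 24 h, and 1.60 and 1.56 TPM at 48 h. These RO genes parted at 24 h, where rank 6 lay below and rank 7 above both mock libraries, and met again at 2.64% and 2.69% of mock at 48 h. The RT gene (rank 8) had 129 and 145 TPM in mock, 102 and 98.6 TPM at 24 h, and 5.17 and 5.05 TPM at 48 h. It had 73.2% of its mock level at 24 h, close to the limit that the choice allowed. The RO genes at ranks 9 and 10 were less abundant. Rank 9 had 33.4 and 40.0 TPM in mock, 42.9 and 48.2 TPM at 24 h, and 0.67 and 0.83 TPM at 48 h. Rank 10 had 41.7 and 48.3 TPM in mock, 43.9 TPM in both 24 h libraries, and 1.39 and 1.01 TPM at 48 h. Of the 10 deepest falls, 4 were thus RO genes, although RO gave the fewest of the 106 (15 genes).

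**Figure D1:**
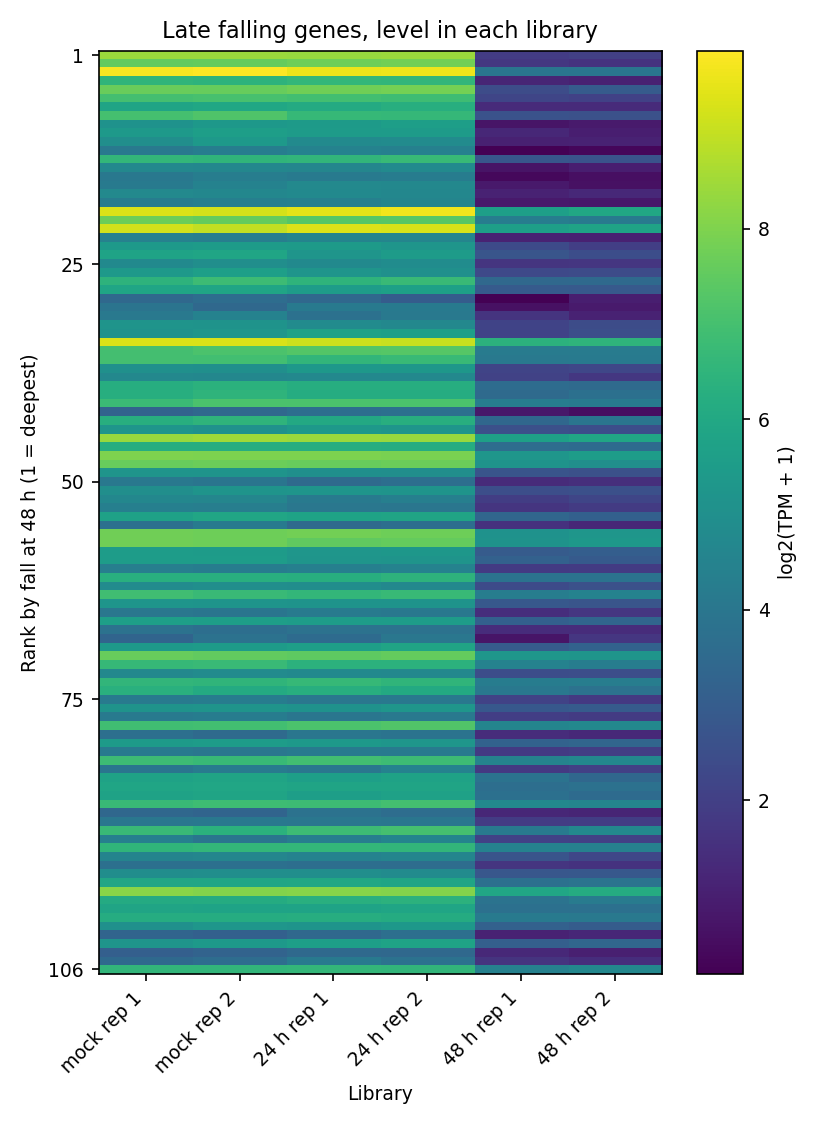
Heat map with the log2(TPM + 1) level of the 106 late falling genes (rows, ranked by the fall at 48 h with the deepest on top) in the 6 libraries (columns: mock, 24 h and 48 h of 2,4-D, replicates 1 and 2). In all 106 rows both 48 h libraries lie below the 4 others, and mock and 24 h look alike. Both patterns follow largely from the choice of the genes.

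Both 48 h libraries lay below all 4 mock and 24 h libraries in each of the 106 genes, a separation that the choice on group means favours. It was not counted over all genes, so nothing is read from it. The lowest mock or 24 h library was between 3.24 and 109 times the highest 48 h library, with a median of 5.58. The median difference was -2.56 for 48 h against mock and -2.52 for 48 h against 24 h, beside -0.083 and -0.183 over all genes tested. The median level at 48 h was 14.4% of mock, and the range ran from 0.847% to 24.1%. By limma with Benjamini-Hochberg adjustment over all genes tested, 106 of the 106 were called lower at 48 h than mock, a call that 22.5% of all tested genes received. Against 24 h 106 were called lower, beside 28.5% of all tested genes. After trimmed-mean rescaling, which evens out the bulk of genes between libraries, this background was 15.8% and still 106 were called. The genes were picked on these differences, so the counts describe them and carry no support of their own.

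What was left at 48 h varied more than the rule required. Of the 106 genes, 5 kept under 2% of their mock level, 11 kept 2% to 5%, 14 kept 5% to 10%, 26 kept 10% to 15%, 32 kept 15% to 20% and 18 kept 20% to 25%. A drop of 3 or more on the log2 scale against mock was found in 27 genes, and 11 of these dropped by 4 or more. Those 27 had a median of 2.22 TPM at 48 h and 56.0 TPM in mock, and the median of the percentages left in each gene was 3.49%. The other 79 had a median of 7.37 TPM at 48 h and 42.4 TPM in mock, and the median percentage left was 16.4%. Both sets spread over wide levels in mock, 16.9 to 900 TPM for the 27 and 8.16 to 637 TPM for the 79.

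None of the 106 genes was listed at 0 in any library. In 8 genes both 48 h libraries were under 1 TPM, between 0.13 and 0.99 TPM, with 8.54 to 40.0 TPM in their mock libraries. The lowest of them, an RT gene (rank 12), had 15.99 and 18.7 TPM in mock, 21.4 and 19.9 TPM at 24 h, and 0.13 and 0.27 TPM at 48 h. Another RT gene (rank 29) had 9.97 and 11.4 TPM in mock, 9.89 and 6.90 TPM at 24 h, and 0.13 and 0.99 TPM at 48 h. In this gene the 48 h libraries were far apart, though both were under the lowest of the 4 others. At the other end, 35 genes still had 10 TPM or more in both 48 h libraries.

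**Figure D2:**
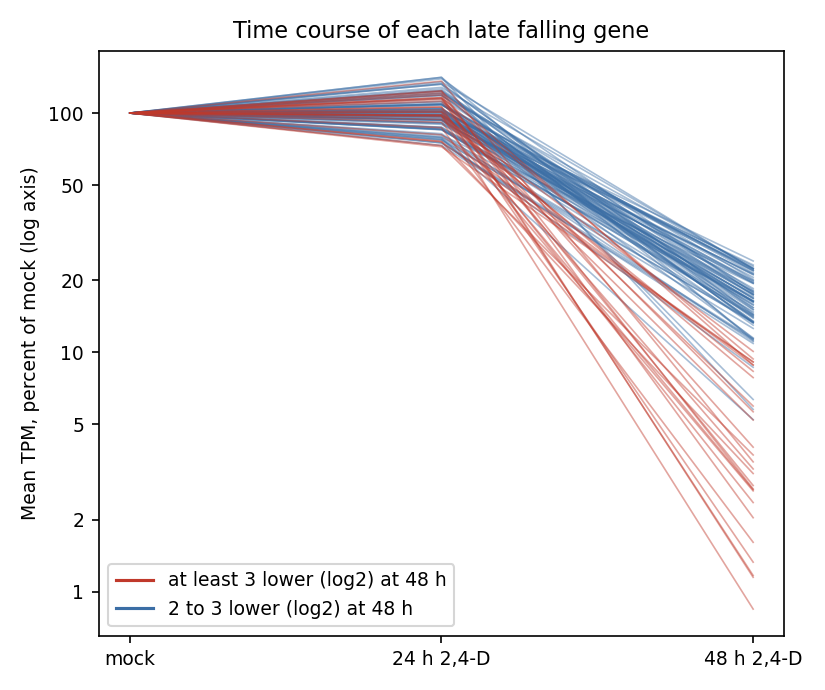
Mean TPM of each of the 106 genes in percent of its mock mean (log axis) in mock, at 24 h and at 48 h of 2,4-D, 1 line per gene. Levels were 72.3% to 141% of mock at 24 h and 0.847% to 24.1% at 48 h, and the red lines mark the 27 genes that dropped by 3 or more on the log2 scale.

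The 8 other genes among the 10 most abundant in mock fell less far than the 2 named above. An LA gene (rank 34), the second most abundant, had 634 and 639.8 TPM in mock, 552 and 536 TPM at 24 h, and 84.1 and 87.1 TPM at 48 h. An LE gene (rank 19) had 639.6 and 598 TPM in mock, 707 and 812 TPM at 24 h, and 49.7 and 60.1 TPM at 48 h. They differed at 24 h, where the LA gene was below and the LE gene above its mock libraries. An RT gene (rank 21) had 593 and 508 TPM in mock, 648 and 627 TPM at 24 h, and 49.2 and 54.3 TPM at 48 h. A second RT gene (rank 45) had 334 and 361 TPM in mock, 341 and 334 TPM at 24 h, and 51.0 and 59.0 TPM at 48 h. The first kept 9.39% of its mock level and the second 15.8%. The seventh to the tenth most abundant were an SHA gene (rank 97), an LA gene (rank 47) and LE genes at ranks 57 and 56. The SHA gene had 284 and 267 TPM in mock, 272 and 265 TPM at 24 h, and 58.9 and 69.2 TPM at 48 h, which left 23.2%. The LA gene had 254 and 245 TPM in mock, 249 and 239 TPM at 24 h, and 37.0 and 44.8 TPM at 48 h. At 24 h the SHA gene was at 97.3% and the LA gene at 97.8% of mock. The LE gene at rank 57 had 216 and 213 TPM in mock, 182 and 188 TPM at 24 h, and 34.1 and 39.2 TPM at 48 h. The LE gene at rank 56 had 214 and 212 TPM in mock, 221 and 209 TPM at 24 h, and 34.0 and 37.6 TPM at 48 h. They ended at 17.1% and 16.8% of mock. The orders by abundance and by depth shared 2 of their first 10 genes, those with printed IDs.

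Summed over the 106 genes, the level was 9652.7 and 9749.4 TPM in the mock libraries, 9557.1 and 9780.9 TPM at 24 h, and 1144.3 and 1209.7 TPM at 48 h. The mock and 24 h sums overlapped, and both 48 h sums were far below them. The genes thus held 0.965% and 0.975% of all TPM in mock, 0.956% and 0.978% at 24 h, and 0.114% and 0.121% at 48 h. The mean sum was 1177 ± 46.2 TPM at 48 h and 9701 ± 68.4 TPM in mock (SD, n = 2 libraries each), so 12.1% of it was left. The 10 most abundant in mock made up 45.4% and 44.2% of the sum in the mock libraries and 36.4% and 38.7% at 48 h.

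The same rule with the direction at 48 h reversed gave 94 late rising genes. Their summed level was 1087.1 and 1036.8 TPM in mock, 1056.1 and 971.9 TPM at 24 h, and 8293.4 and 8175.3 TPM at 48 h. Against mock, the sum of the falling genes was lower by 8524 TPM at 48 h, and that of the rising genes was higher by 7172.4 TPM. TPM add up to a fixed total in each library, so such sums are not independent of each other. The count of falling genes exceeded that of rising genes at a step of 2 (106 against 94) and of 1 (584 against 416), but not of 3 (25 against 28). At a step of 2.5 there were 50 of each, at 4 there were 10 falling and 9 rising genes, and at 5 there were 4 and 1, so the order did not turn steadily with the size of the step. After trimmed-mean rescaling, which moved the median of all genes tested between 48 h and 24 h from -0.183 to -0.008, the rule found 81 falling and 110 rising genes, so the order of the counts turned.

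**Figure D3:**
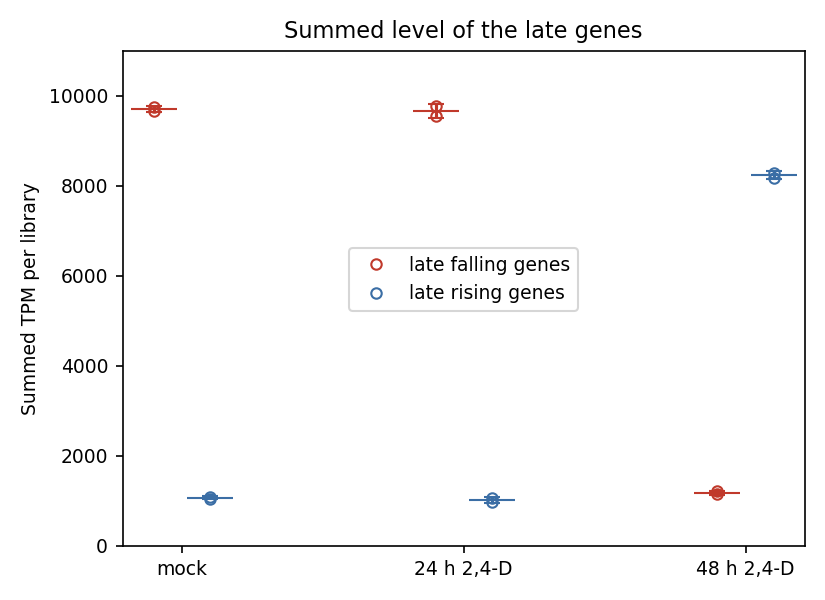
Summed TPM per library of the 106 late falling genes (red) and the 94 late rising genes (blue) in mock, at 24 h and at 48 h of 2,4-D. Circles are libraries and bars are means with SD (n = 2). The falling genes have 1177 TPM at 48 h against 9701 TPM in mock.

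Among all genes that were low at 48 h, a fall after 24 h was 1 of several time courses. In the same range of levels, 224 genes were lower than mock by 2 or more at 48 h, and 119 of them (53.1%) had stayed within 0.5 of mock at 24 h. Of the others, 65 were already lower by 0.5 to 2 at 24 h, 30 were lower by 2 or more, and 10 were higher by 0.5 or more. Of the 119, 13 missed the rule because the step from 24 h was under 2. Among the 280 genes higher than mock by 2 or more at 48 h, 106 (37.9%) had stayed within 0.5 at 24 h. These shares were not tested against each other. Genes that had fallen by 2 or more at 24 h and then moved by less than 0.5 numbered 15, and genes that fell by 1 or more at each step and 2 or more in all numbered 23. Summed levels were 452.3 TPM in mock, 39.9 TPM at 24 h and 42.2 TPM at 48 h for the 15, and 2166.4, 685.3 and 248.7 TPM for the 23.

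At 24 h the 106 genes lay on both sides of mock, 53 above and 53 below, with a median difference of -0.01 beside 0.098 over all genes tested. In 37 genes the 24 h and mock libraries overlapped. In 33 genes both 24 h libraries were above both mock libraries, with a median of 121% of mock, and in 36 both were below, with a median of 85.3%. The same counts were not made over all genes, so nothing is read from them. At 48 h the 33 had a median of 13.3% of mock left and the 36 a median of 13.8%. The side taken at 24 h depended on the scaling: 35 genes were above and 71 below mock after trimmed-mean rescaling, and 40 and 66 after quantile normalization.

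By limma with adjustment over all genes tested, 13 of the 106 were called at 24 h against mock, 5 higher and 8 lower. Of all 32225 tested genes, 16.0% were called in either direction, 3531 higher and 1633 lower. The rule had limited this difference to under 0.5, so nothing is read from the counts or from their split by direction. The 5 were at 119% to 141% of mock and the 8 at 72.3% to 85.4%. The largest difference among the 8 was that of an SHA gene (rank 24), with 54.4 and 57.6 TPM in mock, 36.8 and 44.2 TPM at 24 h, and 5.72 and 4.51 TPM at 48 h. Among the 5 it was that of an RO gene (rank 33), with 34.0 and 37.3 TPM in mock, 51.7 and 48.7 TPM at 24 h, and 3.33 and 4.69 TPM at 48 h. The rank 33 gene was thus above mock at 24 h and below it at 48 h. The rank 24 gene was below mock at 24 h and lower again at 48 h. After trimmed-mean rescaling 0 were called higher and 15 lower, beside 14.3% of all tested genes called in either direction. After quantile normalization the counts were 0 and 13, beside 14.5%. For both scalings the share over all genes was not split by direction, so nothing is read from the split. Fits without 1 library called fewer of the 106, and also a smaller share of all tested genes.

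A reading in libraries that the choice did not use was obtained by applying the rule to 1 replicate and measuring the other. With the replicate 1 libraries of the 3 groups, 102 genes were chosen. In the replicate 2 libraries, 86 of these (84.3%, exact 95% interval 75.8% to 90.8%, counting error only) were lower at 48 h by 2 or more than in mock and 24 h. Of all 15872 genes in that range of levels, 0.800% (127 genes) met this limit, and these 127 include the 86. With the roles exchanged, 107 genes were chosen, and 88 of them (82.2%, interval 73.7% to 89.0%) met the same limit in replicate 1. Of all 15744 genes in the range, 0.800% (126 genes, the 88 among them) did so. With 1 library in each group this is a description with no test. The intervals count genes as independent, which they are not, and libraries of a group may be technical replicates. The shares therefore describe these libraries and not other plants. All 102 and all 107 were lower by at least 1 in the unused libraries. The share of all genes at this wider limit was not counted, so nothing is read from it. The median difference of 48 h from mock was -2.45 in replicate 2 for genes with -2.57 in replicate 1, and -2.50 in replicate 1 for genes with -2.46 in replicate 2. The choice was the same in both replicates for 80 genes, all of them among the 106, while 3 of the 106 were chosen in neither replicate alone.

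**Figure D4:**
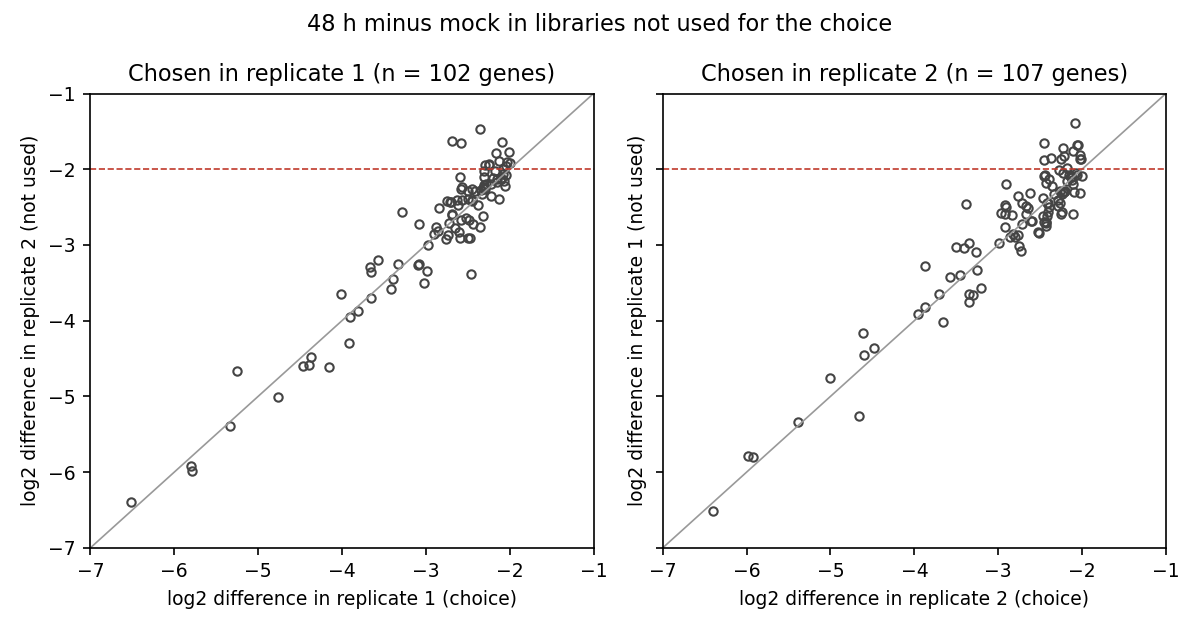
Log2 difference of 48 h from mock in the replicate used to choose genes (x axis) and in the other replicate (y axis), for the 102 genes chosen in replicate 1 (left) and the 107 chosen in replicate 2 (right). The grey line marks equal values and the dashed line -2; the highest values in the unused libraries are -1.46 and -1.38.

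Replicates of the late falling genes lay closer together in mock and at 24 h than at 48 h. Between replicates of the 106 genes, the median absolute log2 difference came to 0.10 for mock, 0.09 for 24 h and 0.15 for 48 h. Over all genes in the same range of levels it was 0.10, 0.08 and 0.09. The median level of the 106 was 5.15 TPM at 48 h and 44.8 TPM in mock, and the part of the lower level in the wider spread was not tested. The widest difference at 48 h, 1.00, was in an LE gene (rank 68) with 8.92 and 13.1 TPM in mock, 10.7 and 15.4 TPM at 24 h, and 0.64 and 2.28 TPM at 48 h. Its replicate 2 was the higher library in all 3 groups.

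Near the limits of the rule the genes inside and outside had similar values. The 3 genes just inside the limit on 48 h minus mock had differences of -2.007, -2.02 and -2.028, and the 3 just outside had -1.979, -1.972 and -1.969. The first of those inside, an LE gene, had 93.1 and 92.2 TPM in mock, 95.8 and 93.7 TPM at 24 h, and 20.6 and 24.1 TPM at 48 h. The first outside, also an LE gene, had 40.8 and 33.9 TPM in mock, 46.0 and 47.0 TPM at 24 h, and 8.31 and 9.10 TPM at 48 h. On 48 h minus 24 h, the values were -2.008, -2.015 and -2.018 inside and -1.970, -1.962 and -1.948 outside. In all, 20 genes missed the set on the difference from mock alone and 13 on that from 24 h alone. Another 12 genes had the same time course with all group means under 10 TPM.

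The share of late falling genes was higher among abundant genes, and up to 500 TPM that of late rising genes was mostly higher there too. The late falling genes were 22 of the 5740 genes with a highest group mean of 10 to 20 TPM (0.383%), 32 of 5687 at 20 to 50 TPM (0.563%), and 26 of 2333 at 50 to 100 TPM (1.11%). Of the genes at 100 to 200 TPM they were 14 of 1164 (1.20%), at 200 to 500 TPM 8 of 619 (1.29%), and at 500 to 1000 TPM 4 of 188 (2.13%). The late rising genes were 0.401%, 0.492% and 0.943% of the 3 lower classes, 0.687% at 100 to 200 TPM, 1.94% at 200 to 500 TPM and 0.532% (1 gene) at 500 to 1000 TPM. The scale of log2(TPM + 1) understates falls of low genes, and the part of this in the trend was not tested.

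The 5 prefixes gave unequal numbers of the 106 genes. LE gave 32, LA 23, SHA 20, RT 16 and RO 15, which was 1.29% of the LE genes in the same range of levels, 0.596% of LA, 0.633% of SHA, 0.520% of RT and 0.477% of RO genes. LE genes were 30.2% of the set and 15.8% of all genes in that range. The median highest group mean of all such genes was 29.8 TPM for LE and 25.6 to 26.9 TPM for the 4 others. A drop of 3 or more at 48 h was found in 6 genes each of LE, RO, RT and SHA and in 3 of LA. The median difference of 48 h from mock ran from -2.84 in RO to -2.37 in LE. LE was also high among the 94 late rising genes, with 22 genes or 0.885% of LE genes, beside 0.910% of RT (28 genes), 0.604% of RO, 0.414% of LA and 0.285% of SHA genes. A high share of LE genes was thus found in both directions. These are counts of genes of 1 assembly, with no test.

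**Figure D5:**
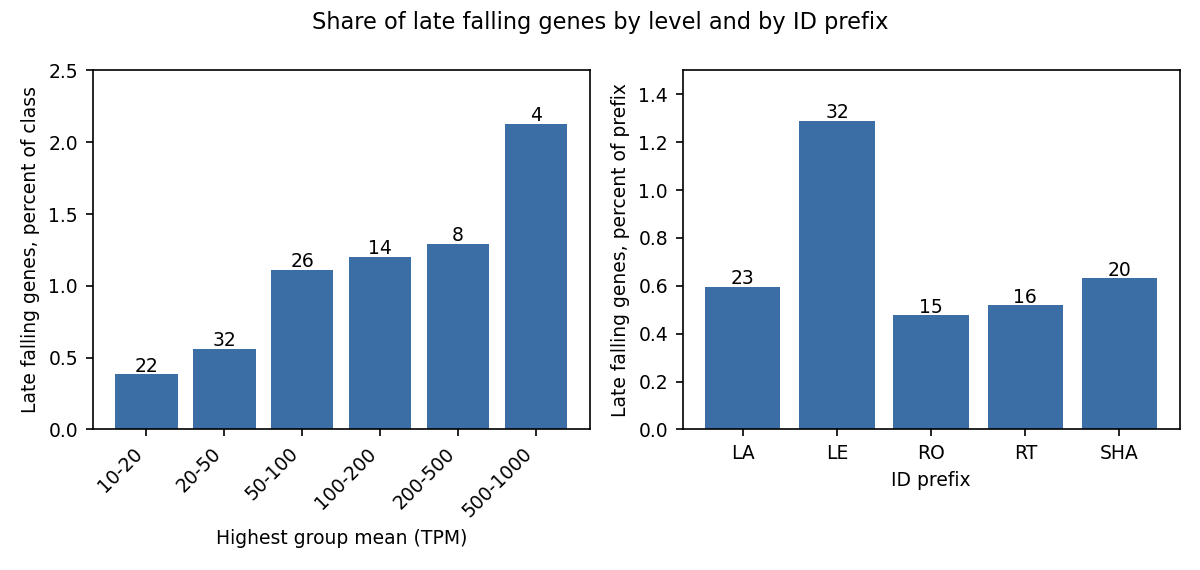
Late falling genes in percent of all genes with the same highest group mean in TPM (left) and the same ID prefix (right), with the number of late falling genes above each bar. The share is 0.383% at 10 to 20 TPM and 2.13% at 500 to 1000 TPM, and 1.29% among LE genes against 0.477% to 0.633% among the 4 other prefixes.

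Each of the 106 genes came from a component of its own. A component groups assembled genes whose sequences overlap, so that they can share reads, and it is read from the ID without its closing g field; there were 106. In 100 of these the late falling gene was the 1 gene listed, and 94.3% of the set stood alone in this way beside 89.6% of all genes in the same range of levels. Between prefixes, copies of 1 transcript cannot be recognised from the IDs. The 6 remaining components each held 1 further gene. Of these 6 partners, 5 were tested and 3 were called lower at 48 h than mock by limma, beside 22.5% of all tested genes.

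Of the tested partners, 2 were not called lower. The component of the RT gene at rank 8 held a partner with 22.1 and 23.5 TPM in mock, 18.5 and 17.8 TPM at 24 h, and 25.9 and 24.6 TPM at 48 h. The late falling gene of that component had 5.11 TPM at 48 h and 137 TPM in mock, so the partner was the lower of the pair in mock and the higher at 48 h. The component of an LA gene (rank 99) held a partner with 144 and 145 TPM in mock, 128 and 162 TPM at 24 h, and 161 and 107 TPM at 48 h. Its 48 h libraries lay on both sides of mock, while the late falling gene had 12.5 TPM at 48 h and 55.9 TPM in mock. The summed mean of both genes was 30.4 TPM at 48 h and 160 TPM in mock for the first component, and 147 TPM at 48 h and 200 TPM in mock for the second.

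The 3 partners that were called lower differed in how much of their mock level was left at 48 h. The partner of an LE gene (rank 64) had 14.9 and 16.7 TPM in mock, 8.56 and 9.83 TPM at 24 h, and 6.78 and 5.26 TPM at 48 h. Its 24 h libraries already lay below its mock libraries, and it kept 38.1% while the late falling LE gene kept 16.4%. The partner of an RT gene (rank 101) had 3.98 and 4.51 TPM in mock, 2.91 and 2.31 TPM at 24 h, and 0.63 and 0.91 TPM at 48 h. It kept 18.1%, and the late falling RT gene itself 21.9%. The partner of an RO gene (rank 79) had 1.33 and 1.23 TPM in mock, 2.42 and 2.31 TPM at 24 h, and 0.42 and 0.53 TPM at 48 h. It kept 37.1% and the late falling RO gene 14%. The partner that was not tested, beside an LE gene (rank 90), was between 0.20 and 0.54 TPM in all 6 libraries.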

How the data were processed

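TPM per assembled gene, as deposited by the authors in 1 table with values rounded to 0.01, were used for all 6 libraries. The submitters' processing notes list RSEM 1.3.2, STAR 2.7.2b, Bowtie2 2.3.4.3 and Trim Galore 0.5.0, and the build TAIR10, with no role for any. TPM keep no read depth, so depth is unknown and no detection floor can be given. Columns for 1 and 2 days went to the libraries of that time and replicate number, and those for day 0 to mock, which alone has no time of treatment. The 106 genes, the sets beside them and the tests were chosen with earlier results of these data known. The model was fitted with limma 3.58.1 (R 4.3.3) on log2(TPM + 1) to the genes that reached 1 TPM in 2 or more libraries, with a mean-variance trend; residual degrees of freedom were 3 and prior ones 4.18. Two-sided tests were adjusted by Benjamini-Hochberg within each comparison, with a threshold of 0.05. Their p-values set a difference of group means against the spread between these libraries within groups, pooled over the groups and moderated across genes. The 24 h and 48 h comparisons share the mock libraries. Only the limma step was tested on simulated data, with known changes at 48 h. The rule, the rescaling and the reading in unused replicates were not simulated. IDs were printed for the most abundant gene in mock and the deepest fall. The first 10 by either order, genes at the limits of the rule and genes at the ends of a range are given by rank. Genes called at 24 h, low or variable at 48 h, and component partners were picked out after their values were seen. Trimmed-mean rescaling used the mean log ratio to the first mock library after trimming 30% of ratios and 5% of levels at each end. Alternatives changed scaling, pseudocount, filter, limits of the rule, replicate block and libraries used.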

Additional observations from a re-analysis of the deposited data

How the results depend on the processing

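Against mock and against 24 h, all 106 genes were called lower at 48 h under each change of scaling, pseudocount, filter or replicate block. Of all tested genes, 7.93% (no filter) to 22.4% (pseudocount 0.1) were called lower than mock in these fits. Against 24 h the range was 10.1% (no filter) to 28.6% (pseudocount 5). The genes were picked on these differences, so the counts carry no support of their own. With a pseudocount of 5 the rule found 51 falling and 60 rising genes; with a step of 1 it found 584 and 416, and with a step of 3, 25 and 28. With 24 h held within 0.25 of mock there were 71 falling and 54 rising genes. Other settings gave 81 to 124 falling genes, 78 of the 81 after trimmed-mean rescaling being among the 106. Leaving out 1 library gave 102 to 108 falling and 86 to 102 rising genes. The 13 calls at 24 h became 20 with a pseudocount of 5, where 16.4% of all tested genes were called, and 2 with no filter, where 4.34% were. They were fewer without 1 library, as was the share of all tested genes. The share met in the unused replicate was 82.5% to 86.0% for replicate 2 and 81.5% to 86.9% for replicate 1. Over all genes, 9187 were called lower at 48 h than at 24 h, but 5090 after trimmed-mean rescaling, 5802 after quantile normalization, 5672 without 24 h replicate 1 and 5719 without 48 h replicate 2. Against mock, 7256 were called lower at 48 h, but 4792 without 48 h replicate 2. At 24 h 5164 of 32225 tested genes were called (16.0%), but 3093 of 71270 (4.34%) with no filter, and fewer than 5164 without any 1 library. The cause was not tested; fits without a library have fewer samples. The median fall against mock was -2.49 under either rescaling, -2.77 with a pseudocount of 0.1 and -2.02 with one of 5, alternatives chosen after seeing the data. Libraries of equal number deviated together with r of 0.052, -0.008 and 0.03 over the genes tested. Little deviation was thus shared, but this cannot show whether libraries were paired by culture or batch. With the replicate block, 106 of the genes were called lower at 48 h against mock, 106 against 24 h, and 11 were called at 24 h against mock. Of all tested genes, 21.9%, 27.7% and 14.9% received the same calls.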

Other observations

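The same time course was found in 4 of the 105 genes with a highest group mean of 1000 TPM or more, which the range of levels kept out of the set. They were picked out after their values were seen. An RT gene had 1893 and 2042 TPM in mock, 1638 and 1698 TPM at 24 h, and 151 and 193 TPM at 48 h. An RO gene had 1184 and 1333 TPM in mock, 902 and 1029 TPM at 24 h, and 138 and 151 TPM at 48 h. In both, the 24 h libraries lay below the mock libraries. A second RT gene had 1090.5 and 1012 TPM in mock, 878 and 859.7 TPM at 24 h, and 78.3 and 90.9 TPM at 48 h. An SHA gene had 938 and 918 TPM in mock, 1032 and 1082 TPM at 24 h, and 57.0 and 60.7 TPM at 48 h. The 4 kept between 6.34% and 11.5% of their mock level at 48 h.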
